A study of Schmidtea mediterranea with 177 samples.

Results

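The 100 transcripts described here had the highest ratio of mean level in non-muscle cells to mean level in muscle cells among 177 single cells of the planarian flatworm Schmidtea mediterranea. Levels were read counts divided by the total of the cell and scaled to 1000000 reads (cpm), and a transcript was called detected in a cell where it had more than 2 reads. Of the 26560 transcripts in the table, 7060 were detected in 12 or more of the 62 non-muscle cells. These were ranked by the log2 ratio of mean cpm plus 1 in the 62 non-muscle cells over mean cpm plus 1 in the 115 muscle cells, and the first 100 were taken as members. Members were thus selected on these class means, and since the levels chose them, the difference between the classes is given as a description, with no test.

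All cells came from animals of the asexual CIW4 strain that had been starved for 7 to 14 days. The midline tissue of the animals was divided into 10 neighbouring regions, with region 1 at the tip of the head and region 10 at that of the tail, and the pharynx was removed from regions 5 and 6. Cells were dissociated, stained with Hoechst and sorted as non-dividing cells with 2N DNA content. Their cDNA was amplified with SmartSeq2, which copies whole mRNAs of a single cell, and a library was sequenced when qRT-PCR found RNA of collagen or troponin, so the non-muscle cells had also passed a screen for muscle RNA. The study then separated the 115 muscle cells from the 62 non-muscle cells by a principal component analysis of these same libraries and by their troponin level. The non-muscle class is thus what was not kept as muscle, and it is not 1 cell type. Regions 1 and 3 to 10 gave 11, 3, 3, 6, 9, 11, 7, 5 and 7 non-muscle cells, and region 2 gave none. Regions 1 to 10 gave 11, 6, 6, 10, 23, 12, 9, 13, 13 and 12 muscle cells. The labels name no animal, day or plate, so the cells of a region were treated as 1 sample and cells were not used as replicates. Libraries held 53607 to 2702758 reads in non-muscle cells (median 304656) and 19205 to 3884642 reads in muscle cells (median 259378). They carry no molecular identifiers, so reads are not independent molecules.

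Planarians replace their tissues throughout life from neoblasts, stem cells that express the PIWI gene smedwi-1. The epidermis is renewed by neoblast descendants that leave the cell cycle, move outward and mature through successive stages, each with its own transcripts. The zinc finger gene zfp-1 and the planarian p53 gene act early in this lineage. Body-wall muscle lies beneath the epidermis and carries many of the signals that tell cells where along the body they are.

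The members fell from a log2 ratio of 9.91 at rank 1 to 6.21 at rank 100, with a median of 6.90, against a median of 0.03 over the 7060 transcripts ranked. The limit at rank 100 did not mark a gap. Rank 99 (dd_3572_0_1) and rank 100 (dd_1355_0_1) both had a ratio of 6.21, and the next transcripts in the ranking, dd_5024_0_1 and dd_5692_0_1, had 6.17 and 6.16. Transcripts are named here by their contig in the dd_Smed_v4 assembly, with the prefix shortened to dd. The study's supplement gives a name to 4 of the 100 members, and the other 96 are given by contig alone. The named members were ZFP-1 (dd_2946_0_1), a zinc finger protein, VIL1 (dd_929_0_1), a villin, which bundles actin in microvilli, SPTBN1 (dd_1122_0_1), a beta spectrin of the membrane skeleton, and P53 (dd_5563_0_1), a transcription factor of the p53 family. The study lists all 4 among the 12 transcripts that score highest on the component it read as the epidermal lineage. That list was made from these same libraries, so it is not independent of the members.

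Members were present in a minority of the non-muscle cells and nearly absent from muscle cells. They were detected in 12 to 56 of the 62 non-muscle cells, with a median of 18.5 cells, and 88 of the 100 had a median level of 0 cpm over the 62 cells. The 5 members detected in a majority of these cells were dd_3_0_1 in 56, SPTBN1 in 45, VIL1 in 41, ZFP-1 in 40 and dd_899_0_1 in 32. In muscle, 64 members were detected in no cell, 29 in 1 to 4 cells and 7 in 5 or more of the 115 cells, and 10 members had no read in any muscle cell. The 7 were dd_3_0_1 (all but 11 of the 115), dd_899_0_1 (24), dd_61_0_1 (19), dd_55_0_1 (10), SPTBN1 (10), dd_232_0_1 (7) and dd_343_0_1 (5). The rule chose members for a low mean in these same muscle cells, which largely fixes the muscle counts.

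Non-muscle cells differed widely in how many members they held. Non-muscle cells had 0 to 95 of the 100 members (median 16), and muscle cells had 0 to 8 (median 1). With each cell thinned to 50000 reads, the counts were 0 to 90 (median 14) in the 62 non-muscle cells and 0 to 4 (median 1) in the 110 muscle cells deep enough. Together the members took 0.0015% to 17.6% of the reads of a non-muscle cell (median 3.21%) and 0.0017% to 0.119% of those of a muscle cell (median 0.0126%). More than 80 members were detected in 12 non-muscle cells, 10 to 80 in 30 cells and fewer than 10 in 20 cells. Cells with more transcripts detected had more members, with a Spearman rho of 0.62 over the 62 cells, and less with its reads (rho 0.28). Both are descriptions over cells that share dissection, sort and library preparation, and the part of cell complexity or of doublets in these counts was not tested.

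**Figure D1:**
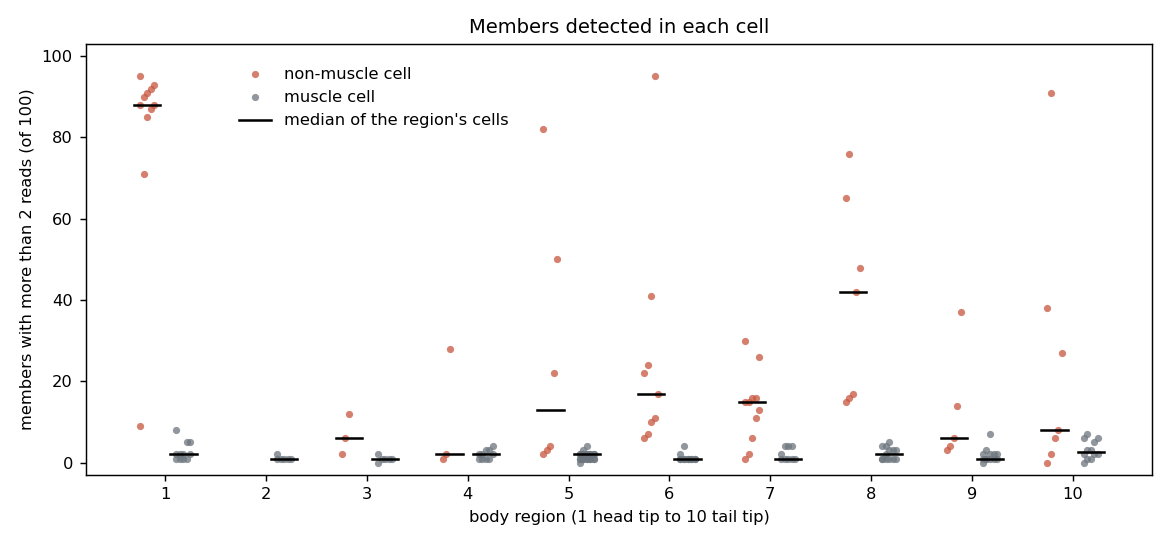
Members detected (more than 2 reads) in each of the 62 non-muscle cells, left of each pair, and the 115 muscle cells, right, by body region. Each point is a cell and each bar the median of the region's cells. In region 1, 10 of 11 non-muscle cells had 71 to 95 members, while the highest muscle cell of any region had 8. The rule that chose the members in part fixes both.

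The head tip held most of the cells rich in members. In region 1, 10 of the 11 non-muscle cells had 71 to 95 members and the other had 9, for a median of 88. The medians in regions 3 to 10 were 6, 2, 13, 17, 15, 42, 6 and 8 members. The highest cell had 82 members in region 5 (next 50), 95 in region 6 (next 41), 37 in region 9 (next 14) and 91 in region 10 (next 38). Region 8 was the other region with high counts, at 15, 16, 17, 42, 48, 65 and 76 members in its 7 cells. Region 7, with as many cells as region 1, had 1 to 30 members per cell. In muscle, the region medians ran from 1 to 2.5 members, with the highest cells in region 1 (8 members), region 9 (7) and region 10 (7).

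Members were clustered by Ward linkage on their log2(cpm + 1) over the 62 non-muscle cells, standardized per transcript. The tree was cut into 4 groups, a number given to the method. A first group of 44 members, called the broad group here, held dd_343_0_1, dd_920_0_1, dd_361_0_1, dd_232_0_1, dd_899_0_1, dd_1215_0_1, dd_125_0_1 and P53. A second of 37 members, the narrow group, held dd_146_0_2, dd_2178_0_1, dd_55_0_1, dd_5958_0_1, dd_247_0_1, dd_3226_0_1 and dd_270_0_1. The third held 10 members with dd_3_0_1, and the fourth 9 members with ZFP-1, VIL1 and SPTBN1. The median Pearson correlation between 2 members of a group was 0.74 in the broad, 0.90 in the narrow, 0.35 in the dd_3 and 0.40 in the ZFP-1 group. Between the broad and narrow groups it was 0.70, between the narrow and ZFP-1 groups 0.01 and between the dd_3 and ZFP-1 groups 0.04. The broad group had 0.29 with the dd_3 group and 0.36 with the ZFP-1 group. Between the narrow and dd_3 groups it was 0.39, above the 0.35 within the dd_3 group, so that group was not set apart by this measure. Over all pairs of members it was 0.64, against 0.47 over pairs of the 100 transcripts ranked next. These correlations run over the same 62 cells and are descriptions.

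**Figure D2:**
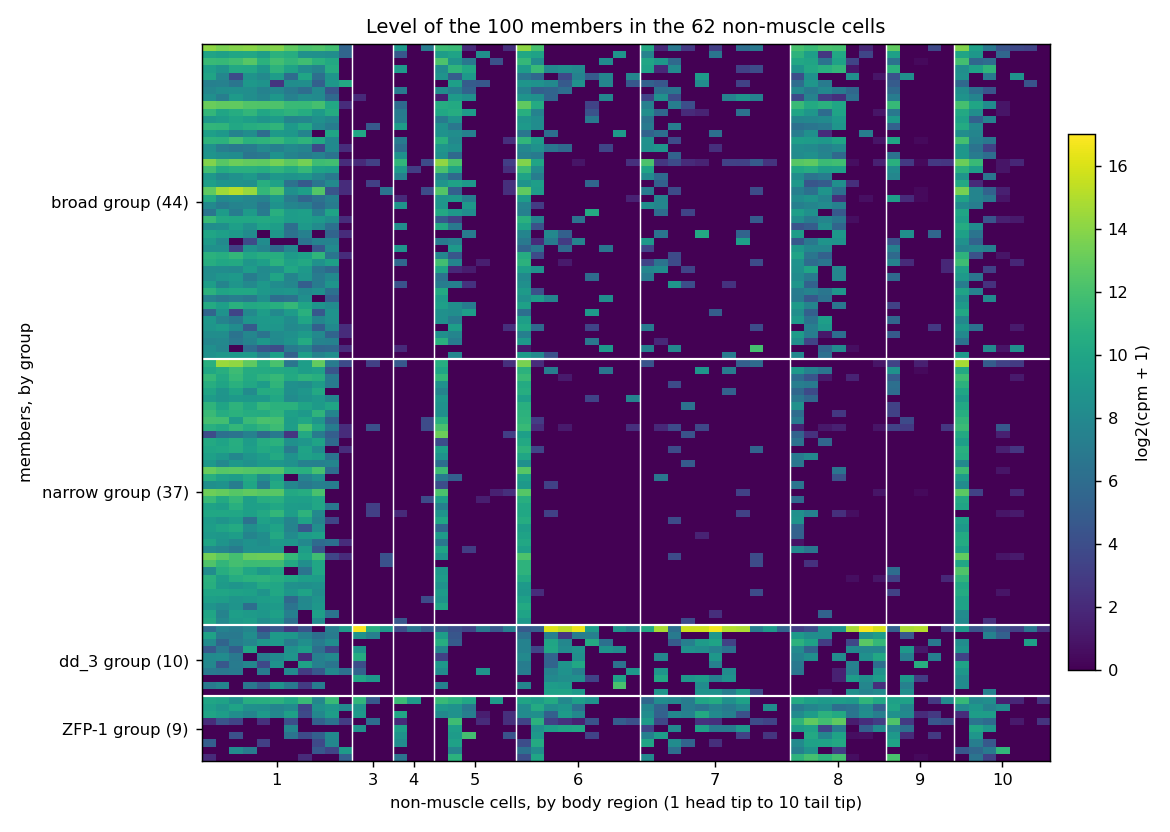
Level of the 100 members, as log2(cpm + 1), in the 62 non-muscle cells. Rows are members, sorted by group and then by the number of cells that detect them, and columns are cells, sorted by body region and then by members detected. The narrow group fills 9 cells of region 1 and single cells of regions 5, 6 and 10, and the broad group fills these and further cells.

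The broad and narrow groups were nested. Both were formed on levels in these same 62 cells, so the counts describe that pattern and do not test it. A majority of the narrow group (19 or more of 37 members) was detected in 13 cells, and each of these 13 also had 37 to 44 of the 44 broad members. A majority of the broad group (23 or more of 44) without that of the narrow group was found in 8 further cells, which had 1 to 17 narrow members. The remaining 41 cells had 0 to 22 broad members and 0 to 4 narrow members. The majority was taken as the limit after these values were seen, and 2 cells lay next to it for the narrow group, at 17 and 19 members. For the broad group the cells next to the limit had 22 and 23 members. Thinned to 50000 reads, 19 of the 62 cells held the majority of the broad group. None of the 115 muscle cells held a majority of any group, which the choice of members for a low level in these cells largely fixes.

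**Figure D3:**
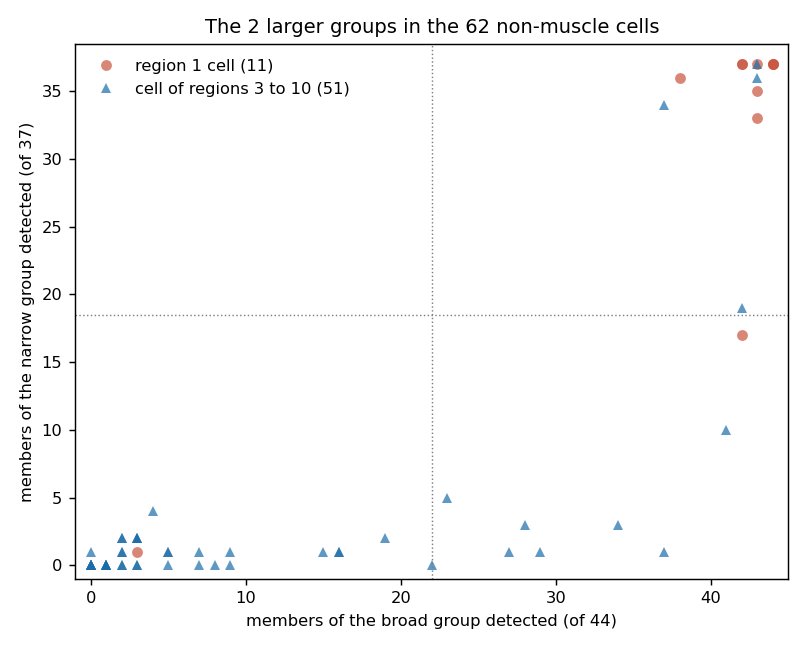
Members of the narrow group detected (of 37, vertical) against members of the broad group detected (of 44, horizontal) in each non-muscle cell, with dotted lines at 50% of each group. The upper left is empty: the 13 cells above the line for the narrow group all had 37 or more broad members.

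The narrow group belonged mainly to the head tip. Its majority was present in 9 of 11 cells of region 1 and in 4 of 51 cells of regions 3 to 10, namely in 1 cell each of regions 5, 6, 8 and 10. Thinned to 50000 reads, the counts were 9 of 11 and 3 of 51 cells. The cell numbers in the labels run in 3 ranges whose meaning is not stated, and region 1 has non-muscle cells in the first and the second. In the first range the majority was present in 3 of 3 cells of region 1 and in 1 of 13 of the other regions, and in the second in 6 of 8 and in 2 of 9. The third range held no cell of region 1, and there 1 of 29 cells had it. A share of 45 to 76.9% of the cells that detected a narrow member came from region 1 (median over the 37 members 66.7%), where 17.7% of the non-muscle cells lay. Of the 37 narrow members, 35 had their highest region mean in region 1. Of all 100 members 79 did, against 61 of the 100 transcripts ranked next and 11.6% of the 7060 ranked. No narrow member was detected in 12 or more cells outside region 1. Each thus passed the filter of the rule only with its region 1 cells, which in part fixes the shares and peaks given here.

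Among the 10 members ranked first, 6 were in the narrow group, and their levels showed the same cells again. dd_146_0_2 was detected in 13 non-muscle cells, 9 of them in region 1, with a highest cell of 9619 cpm there, and averaged 1090 ± 2468 cpm in non-muscle cells and 0.401 ± 1.45 cpm in muscle cells (SD over 62 and 115 cells). Its mean was 4579 cpm in region 1, 786 cpm in region 5, 652 cpm in region 6 and 944 cpm in region 10, and between 0 and 0.80 cpm in each of the other 5 regions. dd_2178_0_1 was detected in 14 cells, 10 in region 1, with means of 4074 cpm in region 1 and 0 to 681 cpm elsewhere. dd_5958_0_1 and dd_3226_0_1 were each detected in 12 cells, 9 in region 1, and averaged 1117 and 436.5 cpm over the non-muscle cells. dd_247_0_1 was detected in 17 cells, 10 in region 1, and averaged 425.2 ± 915 cpm in non-muscle cells and 0.210 ± 1.46 cpm in muscle cells. dd_55_0_1 was the narrow member found in most cells. It was detected in 21, among them all 11 of region 1, with 5827 cpm on average in region 1 and 3977 cpm in region 10, where its highest cell had 27795 cpm. It was also detected in 10 muscle cells, at up to 76.8 cpm. dd_270_0_1 was found in 20 non-muscle cells of 7 regions and in no muscle cell.

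The broad group was strongest in the head tip and extended to the trunk and tail. Its majority was present in 10 of 11 cells of region 1, in 4 of 7 cells of region 8, in 2 cells each of regions 5, 6 and 10, in 1 cell of region 9 and in none of the 17 cells of regions 3, 4 and 7. After thinning the cell of region 9 and 1 of those of region 6 no longer held it. Its members were detected in 17 to 32 non-muscle cells. Of the 44, 42 had their highest region mean in region 1, against 11.6% of the 7060 transcripts ranked. A number of broad members, dd_4252_0_1, dd_2292_0_1 and dd_6130_0_1 among them, also passed the filter of the rule only with their region 1 cells. This in part fixes the peaks and shares given here. The first-ranked member of all, dd_343_0_1, was detected in 22 non-muscle cells, 9 in region 1, and averaged 2120 ± 6421 cpm in non-muscle cells and 1.197 ± 5.19 cpm in muscle cells. Its highest cell had 37345 cpm in region 1, and the region means were 9529 cpm in region 1, 926 cpm in region 5, 911 cpm in region 6, 1693 cpm in region 10 and 0.07 to 107.6 cpm in the others. dd_920_0_1, at rank 2, was detected in 26 non-muscle cells and in no muscle cell. Its region means were 4526 cpm in region 1, 998 cpm in region 8, 975 cpm in region 6 and 778 cpm in region 10, and region 3 had none. dd_361_0_1 was detected in 24 non-muscle cells and averaged 1768 cpm in region 1, with its highest cell of 4053 cpm in region 10. dd_232_0_1 was detected in 23 non-muscle cells and had substantial means in region 5 (3812 cpm) and region 8 (2838 cpm) beside region 1 (7315 cpm), with its highest cell of 18140 cpm in region 5. dd_899_0_1 was the most widely detected broad member, in 32 non-muscle cells of 8 regions and in 24 muscle cells, at a mean of 2853 ± 5094 cpm in non-muscle cells and 7.96 ± 22.4 cpm in muscle cells. dd_1215_0_1 was detected in 29 non-muscle cells, all 11 of region 1 among them, and had no read in the 115 muscle cells. dd_125_0_1 was also detected in 29 non-muscle cells, and in 4 muscle cells.

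P53, the transcription factor, was a broad member found well beyond the cells rich in narrow members. It was detected in 29 non-muscle cells, in all 13 cells with a majority of the narrow group, all 8 with a majority of the broad group alone and 8 of the other 41. Its region means were 824 cpm in region 1, 816 cpm in region 8, 615 cpm in region 5 and 0 to 498 cpm in the others. It averaged 483.4 ± 742 cpm in non-muscle cells and 3.03 ± 31.2 cpm in muscle cells, where 1 cell detected it, at 334 cpm.

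The ZFP-1 group was spread over the body. Its majority (5 or more of 9 members) was found in 22 cells of 8 regions, in 5 of 11 cells of region 1, in 6 of 7 cells of region 8 and in 11 of the 44 cells of the other 7 regions. Thinned to 50000 reads, 14 of the 62 cells held it, 2 of 11 in region 1 and 4 of 7 in region 8, so this count depended on depth. ZFP-1 itself was detected in 40 non-muscle cells of all 9 regions and in no muscle cell, at 293 ± 391.3 cpm in non-muscle cells and 0.222 ± 1.39 cpm in muscle cells. Its median over the 62 cells was 169 cpm and its highest cell, in region 8, had 1904 cpm. VIL1 was detected in 41 non-muscle cells and in no muscle cell, and SPTBN1 in 45 non-muscle cells and 10 muscle cells. SPTBN1 averaged 777 ± 864 cpm in non-muscle cells and 6.98 ± 27.5 cpm in muscle cells, with a median of 575.04 cpm over the 62 non-muscle cells, the highest median of the 100 members. ZFP-1, VIL1 and SPTBN1 were present in all 13 cells with a majority of the narrow group and in all 8 with that of the broad group alone, and also in 19, 20 and 24 of the other 41 cells.

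The other 6 members of the ZFP-1 group were detected in 1 to 6 of the 11 non-muscle cells of the head tip, dd_2832_0_1 in 1 and dd_61_0_1 in 6. dd_61_0_1 averaged 2963 cpm in region 8, 1009 cpm in region 9 and 16.8 cpm in region 1, and its highest cell of 7517 cpm was in region 8. dd_69_0_1 averaged 1713 cpm in region 8, 875 cpm in region 9 and 3.78 cpm in region 1. dd_61_0_1 was detected in 7 of the 13 cells with a majority of the narrow group and in 8 of the 8 with that of the broad group alone, and dd_69_0_1 in 3 of 13 and 7 of 8. dd_6912_0_1 and dd_3572_0_1 had the same form, with 3 and 4 of the 13 cells and 8 of the 8. dd_61_0_1 was detected in 19 muscle cells as well, at up to 116 cpm.

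**Figure D4:**
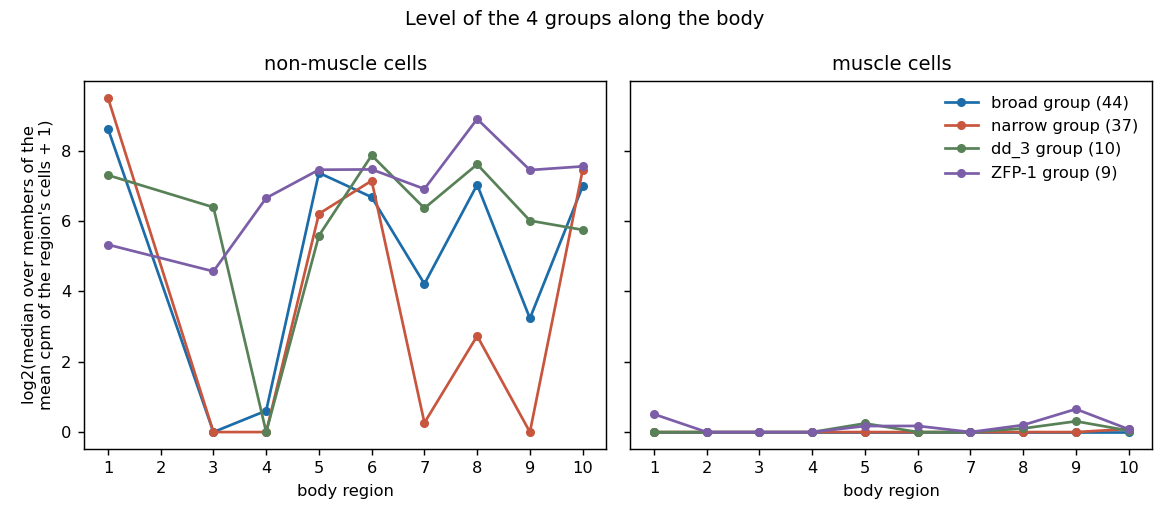
Level of the 4 groups by body region in non-muscle cells (left) and muscle cells (right), as log2 of 1 plus the median, over the members of a group, of the mean cpm of the region's cells. Region 2 gave no non-muscle cell, so its line joins regions 1 and 3, and regions 3 and 4 rest on 3 cells each. The broad and narrow groups are highest in region 1 (medians of 393.2 and 724 cpm) and the ZFP-1 group in region 8 (476 cpm).

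dd_3_0_1 was the most abundant member, and its group is named after it. It averaged 14718 ± 30747 cpm in non-muscle cells and 129 ± 152 cpm in muscle cells, and was detected in 56 of the 62 non-muscle cells and in all but 11 of the 115 muscle cells. The level fell into separate ranges: 15 non-muscle cells had 27345 to 124627 cpm, 2 had 1251 and 1661 cpm, and 45 had 0 to 681 cpm, against 0 to 1076 cpm in muscle cells. In the 15 high cells it alone made up 2.73 to 12.5% of the reads. They lay in region 3 (1 of 3 cells), region 6 (3 of 9), region 7 (6 of 11), region 8 (3 of 7) and region 9 (2 of 5), and none in regions 1, 4, 5 and 10. They had 0 to 15 of the 44 broad members and 0 to 4 of the 37 narrow members, so none of the 21 cells with a majority of the broad group was among them.

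**Figure D5:**
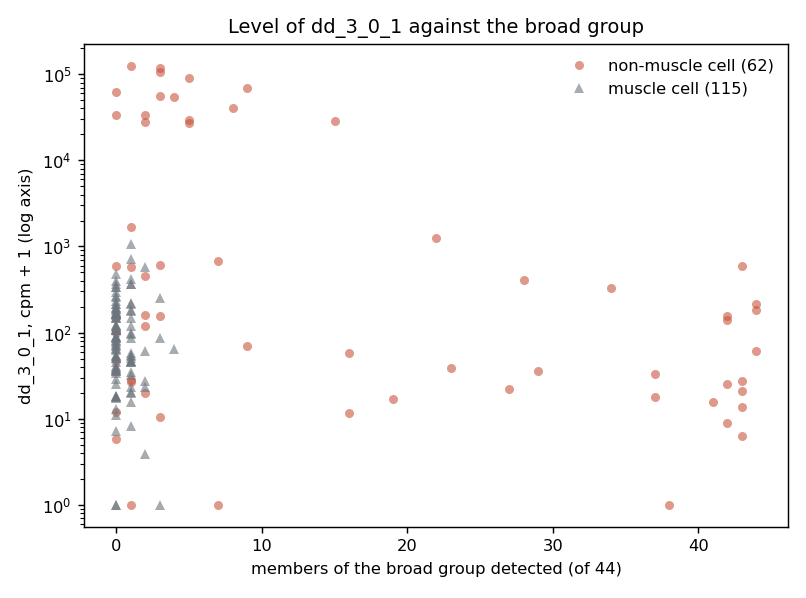
Level of dd_3_0_1 (cpm plus 1, log axis) against the members of the broad group detected (of 44) in each of 62 non-muscle and 115 muscle cells. The 15 non-muscle cells between 27345 and 124627 cpm had 15 or fewer broad members, and the muscle cells reached 1076 cpm.

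Other members of the dd_3 group were not confined to those 15 cells. A majority of the group (6 or more of 10 members) was found in 23 cells. Of these, 9 were in region 1, where no cell was high in dd_3_0_1. dd_1519_0_1 was detected in 13 non-muscle cells, none in region 1 and none of the 21 cells with a majority of the broad group. dd_1694_0_1 was detected in 17 cells, 16 of them among the 41 cells without a majority of either large group. By contrast dd_2272_0_1, dd_869_0_1, dd_749_0_1, dd_1294_0_1 and dd_3869_0_1 were detected in 13, 12, 12, 11 and 11 of the 13 cells with a majority of the narrow group, and in 12, 13, 9, 15 and 9 of the 41. dd_2272_0_1 averaged 354 ± 929.4 cpm in non-muscle cells and 2.71 ± 24.4 cpm in muscle cells, with its highest cell of 6399 cpm in region 8. dd_1294_0_1 was highest in region 6 (mean 304 cpm) and region 1 (221 cpm), and dd_869_0_1 in region 8 (330 cpm) and region 1 (273 cpm).

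Single cells carried a few members. One cell gave 69.9% of the summed cpm of dd_18_0_1 (9458 cpm in region 5), 58.5% of that of dd_6729_0_1 (4150 cpm in region 7), 53.2% of that of dd_5168_0_1 (4352 cpm in region 6) and 48.4% of that of dd_7680_0_1 (2368 cpm in region 10). For the median member the top cell gave 15.3%. With the top cell of each transcript left out, an alternative chosen after seeing the data, 94 of the 100 members stayed among the first 100. Without the cells of region 1, 42 of the 100 did, the lowest number over the 10 regions left out in turn.

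Markers of other cell types were set beside the members. Of the study's 12 muscle markers, the non-muscle cells detected 0 to 9 (median 2) and the muscle cells 2 to 12 (median 12), with summed levels of 4.86 to 13778 cpm (median 172) in non-muscle cells and 781 to 98875 cpm (median 16690) in muscle cells. Troponin was at 0 to 905 cpm in non-muscle cells and 63.03 to 5741 cpm in muscle cells. The summed muscle markers ran against the number of members (Spearman rho -0.65 over the 62 non-muscle cells), and so did the 12 neoblast markers (rho -0.59). The labels call every cell non-dividing. smedwi-1 was above 100 cpm in 24 of the 62 non-muscle cells, a split made from the data and given as a description. These had 0 to 38 members (median 7) against 1 to 95 (median 35.5) in the other 38. The 24 cells also had fewer transcripts detected (median 2952.5 against 4344.5) and fewer reads (median 244856 against 336835). The part of depth in this comparison was not tested. The muscle cells were not free of smedwi-1 either: it ran from 0 to 4464 cpm (median 3.41) in non-muscle cells and from 0 to 3970 cpm (median 469.15) in muscle cells. In the 13 cells with a majority of the narrow group smedwi-1 was at 0 in 11 and at most 4.198 cpm, and 3 to 6 of the 12 neoblast markers were detected. In the 8 cells with a majority of the broad group alone smedwi-1 ran from 0 to 240 cpm, at 0 in 5 of them, and 4 to 9 neoblast markers were detected. The class labels were drawn partly from these markers, and their part in the counts of members was not tested.

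The epidermal lineage list lay close behind the members. All 12 of its transcripts were ranked, at log2 ratios of 4.23 to 7.91 (median 5.58), and the 8 that are not members stood at ranks 128 to 271. They were FABP7, a fatty acid binding protein, CD151, a tetraspanin, ZFHX3, a homeobox transcription factor, EPB41L2, a membrane skeleton protein, COTL1, TAGLN3, beta-actin and ACTG1, which are actins or actin-binding proteins. Of the 11 neoblast markers ranked, none had a ratio above 0 (median -0.59), and the 3 ranked muscle markers had a median of -3.96. Transcripts that the study placed in the epidermis by in situ hybridization gave no member: 10 were ranked, with a median of 0.50 and the best at rank 519. The same held for 7 ranked gut transcripts (median 0.40), 20 ranked transcripts of the central nervous system (median -0.33) and 1 ranked parenchymal transcript (-1.44). In situ patterns were available for transcripts that the study took from its comparisons of regions among muscle cells, some of them below its cutoff. Members were chosen for a low level in muscle cells. Their absence from these in situ lists therefore does not tell in which tissue they are expressed.

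No member passed the test for a slope along the body. Counts were summed over the cells of a region, and edgeR's quasi-likelihood test was run on the change in log2 expression per region, with p-values adjusted by Benjamini-Hochberg over all transcripts tested. In non-muscle cells 0 of 100 members were called, where 0.0375% of 13349 transcripts were, and the lowest adjusted p of a member was 0.43. An unadjusted p under 0.05 was reached by 3 of 100 members, against 7.42% of all transcripts. With region 10 left out it was reached by 26 members, against 1076 of 12906 transcripts, and 0 members were called. DESeq2 called 1 member, dd_1519_0_1, against 1.45% of all, and limma on the mean cpm of a region called 0, against 0.0% of all. With the cell-number range as a covariate edgeR called 1 member, dd_4966_0_1, against 1.23% of all, and 33 members had an unadjusted p under 0.05, against 9.99% of all. That fit summed cells by region and range, giving 17 sums against 9, so sums of the same region counted as separate samples. The rise from 3 to 33 members thus cannot be assigned to the covariate alone. In the main fit slopes were negative, that is lower toward the tail, in 88 of the 100 members. These included all 44 of the broad group and 36 of the 37 of the narrow group. The median slope was -0.17 log2 units per region, against 0.02 over all transcripts, with a median SE of 0.23. This direction rested on region 1, since without it the median was 0.38 and 14 members had a negative slope. Every narrow member and some broad members passed the filter of the rule only with their region 1 cells. The filter thus in part fixes this direction. The 3 members with an unadjusted p under 0.05 were dd_4966_0_1, with a slope of -0.78 (SE 0.28, edgeR adjusted p = 0.43), dd_69_0_1, at 0.85 (SE 0.33, adjusted p = 0.48), and dd_61_0_1, at 0.80 (SE 0.32, adjusted p = 0.52), named after their values were seen. The named members had slopes of -0.15 (ZFP-1, SE 0.17), -0.11 (VIL1, SE 0.18), -0.11 (P53, SE 0.19) and -0.15 (SPTBN1, SE 0.16), each within 1 SE of 0.

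In muscle, 10 members had enough reads to be tested, and 0 were called by edgeR, where 0.0147% of 13570 transcripts were. None of the 10 had an unadjusted p under 0.05, against 5.17% of all transcripts, and DESeq2 and limma called none of them either, against 1.16% and 0.0% of all. dd_3_0_1 was measured best there, with a slope of 0.18 log2 units per region (SE 0.11, edgeR adjusted p = 1.00). The difference between the slopes, non-muscle minus muscle, was called in 0 of 100 members and in 0.0% of 15672 transcripts. An unadjusted p under 0.05 was reached by 2 members, against 7.89% of all. Beyond the 10 members tested in muscle there was little or no muscle slope to subtract, as for dd_1215_0_1 with an SE of 128740. For those members the test cannot decide whether the slopes differ. With region as a block, over the 9 regions that gave both classes, edgeR called 0 members, against 0.00641% of all, and 3 had an unadjusted p under 0.05, against 3.89% of all. DESeq2 without the block called 15 members for this difference, against 3.87% of all, and limma none, against 0.0%. Of these 15, 10 had fitted differences of 10.3 to 13.02 log2 units per region, on members with few or no reads in muscle, and such values depend on the fit and give no size.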

How the data were processed

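The authors sequenced each cell in 2 runs, joined the reads, trimmed them with cutadapt and mapped them with bowtie 1 to the dd_Smed_v4 assembly. The release of bowtie 1 used was not given in the sources used here. They discarded prominent mitochondrial and ribosomal contigs, summed the reads of an isotig and deposited the read counts without normalization. SmartSeq2 libraries do not mark strand, so overlapping or near-identical contigs can share reads. The 3 further files hold the authors' own comparisons of muscle cells and were not used. Every column was matched to a sample by its title.

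Counts were divided by the cell's total to give cpm. Members, gene lists and tests were chosen with earlier results of these data known. The transcripts named are the first 10, those on either side of the limit, members named in the study's supplement, the 3 most detected and 3 most abundant of each group, and called slopes. Other members named were chosen after their values were seen. Region sums were tested with edgeR 4.0.16 (TMM, robust quasi-likelihood fit, transcripts with more than 2 reads in 3 or more cells, threshold 0.05), DESeq2 1.42.0 and limma 3.58.1 in R 4.3.3, tested first on simulated data. No doublet caller was run. Alternatives changed the normalization, filters, thinning, ranking, grouping and regions used. P-values measure the spread between region sums, or between sums of region and range where the range was a covariate.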

Additional observations from a re-analysis of the deposited data

Results flagged for a closer look

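Within the regions that gave 4 to 10 cells of a class, the highest or lowest cell was compared with the rest of its region. Dixon's criterion was used at the 95% level, which chance exceeds in about 1 of 20 groups of normally distributed values. The values here are counts and shares, and the non-muscle class is not 1 cell type, so that rate need not hold. The 9 groups of cells were each tested on 2 measures, and 7 of the 18 comparisons, in 6 of the groups, had a cell apart. In non-muscle cells these were the cell with 95 members detected in region 6, next to 41 in the following cell, and the cell with 91 in region 10, next to 38. By share of reads they were cells with 10.6% of their reads in members in region 5 (the following cell had 3.40%), 13.01% in region 8 (7.05%) and 16.9% in region 10 (1.33%), which is the cell with 91 members. The region 8 cell was 1 of the 15 high in dd_3_0_1 and had 3 broad members. In muscle cells they were 1 cell with 2 members in region 2, where the other 5 tied at 1, so that any other count would stand apart, and 1 cell with 0.0795% of its reads in members in region 7 (0.0342%). The region 5, 6 and 10 cells held a majority of the narrow group, like 9 cells of region 1.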

How the results depend on the processing

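Without each region in turn, 42 to 99 of the 100 members stayed among the first 100. The 42 was without region 1, where the filter of the rule by itself removed every narrow member. Ranking by the mean of log2(cpm + 1) kept 43 and asking for 20 or more cells kept 48, while the other rankings kept 75 to 94. Average linkage put 55 of the 100 members in the matching group, against 81 to 97 for the other groupings. The median number of members per non-muscle cell was 15 to 22 without each region in turn. In muscle cells it was 1 to 2 in that way, and 4 with 1 or more reads counted as detected. The number of members with a called slope stayed at 0 without each region in turn in non-muscle cells, in muscle cells and for the difference. In non-muscle cells it was 1 with DESeq2 and 1 with the cell-number range as a covariate (dd_4966_0_1, slope -1.29, edgeR adjusted p = 0.020, among 1.23% of all transcripts called), and for the difference it was 15 with DESeq2. With that covariate, on sums of region and range, 33 members had an unadjusted p under 0.05 in non-muscle cells, against 9.99% of all transcripts. Without region 10 there were 26, against 1076 of 12906 transcripts. The median slope of the members in non-muscle cells ran from -0.47 to 0.38 without each region in turn, the lowest without region 10 and the highest without region 1. Small slopes turned sign: ZFP-1 at 0.0034, VIL1 at 0.0070 and P53 at 0.0040 after thinning, VIL1 at 0.14 and P53 at 0.32 with limma, and without each region in turn VIL1 ran from -0.17 to 0.047 and P53 from -0.16 to 0.13, both positive without region 1. The cause was not tested. Replicate numbers only name cells and pair none of them. With region as a block, chosen after seeing the data, no member was called for the difference of slopes, and the median difference was -0.23, against -0.28 without the block. Most members had too few muscle reads for a slope in muscle, so neither fit can decide for them.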
